A study of Mus musculus with 32 samples.

Results

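Cubilin and megalin are very large receptors that take up proteins, vitamin carriers and lipoproteins at the surface of absorptive epithelia. Cubilin has no membrane-spanning segment of its own and reaches the surface with its small transmembrane partner amnionless, and the pair is known as the cubam receptor. Megalin, a member of the LDL receptor family, is escorted through the secretory pathway by the receptor-associated protein and is sorted at clathrin-coated pits by the adaptor DAB2. In the mouse embryo this machinery is a classical feature of the extraembryonic endoderm, which feeds the conceptus before a placenta is present, and in the adult it is best known from the kidney proximal tubule.

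The genes described here are *Cubn* (cubilin), *Amn* (amnionless), *Lrp2* (megalin), *Lrpap1* (the receptor-associated protein), *Dab2*, *Nostrin* (an F-BAR membrane-curving protein) and *Fcgrt* (the neonatal Fc receptor for IgG and albumin). They were chosen by symbol, as endocytic genes whose time courses in these samples were already known, and are 7 of the 54233 rows of the deposited table. Their levels and fold changes are therefore given as a description, without p-values. All 7 passed the filter on low values (4 or more samples with normalized counts of 10 or higher), most of them through the late time points where they were high.

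RNA-seq was performed on KH2 mouse embryonic stem (mES) cells, which carry a bidirectional, doxycycline (Dox)-responsive transgene for GATA6-FLAG and DsRed2. The 0 h cells were kept in 2i medium with LIF and received no Dox. The other groups were moved to serum medium with LIF and 1 µg/mL Dox and were collected at 2, 4 and 8 h, or received Dox for 12 h and then serum medium without Dox until 16, 24, 48 and 96 h, to follow the conversion into primitive endoderm (PrE). Every group had 4 replicates from this 1 line, so that medium and Dox differ together between 0 h and all other groups, and there was no serum group without Dox. The study calls its RNA-seq replicates biological and its replicate experiments independent, without saying what replicates 1 to 4 of a time point share, so the spread between some of them may be technical.

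Between 3190108 and 12301732 reads were on genes in each sample (median 8870662.5). The transgene row had no reads at 0 h and averaged 618 ± 110 (SD, n = 4) normalized counts at 2 h and 65.7 ± 14.2 at 16 h, and *Gata6* itself averaged 0.371 ± 0.432 at 0 h and 1210.2 ± 194 at 48 h. All 6 primitive endoderm markers in the list used here (*Gata4*, *Sox17*, *Sox7*, *Pdgfra*, *Foxa2*, *Col4a1*) were called higher at 48 h than at 0 h. Parietal endoderm markers were also called higher, 5 of 5. Their summed level was between 3362 and 5126 normalized counts at 0 h, between 54808 and 85039 at 48 h and between 111066 and 135265 at 96 h. Most of that sum was *Sparc*, at 4252 ± 949 at 0 h and 66186 ± 15547 at 48 h. Of 5 visceral endoderm markers the 3 that could be tested were called higher, whereas *Afp* and *Apoa1*, which encode secreted proteins that define that tissue, averaged 0.707 and 1.62 normalized counts at 48 h. Of the pluripotency markers 3 of 6 (*Nanog*, *Sox2* and *Esrrb*) were called lower at 48 h, 2 of 4 tested trophoblast markers (*Krt7* and *Hand1*) were called higher, and of 2 tested mesoderm markers *T* was called lower, while *Kdr* averaged 34.7 ± 17.6 normalized counts at 0 h, 93.5 ± 25.4 at 48 h, where it was not called, and 275 ± 64 at 96 h, where it was called higher. In bulk samples fewer expressing cells and less RNA per cell cannot be told apart. Replicates 1 and 2 of a group were close to one another and apart from replicates 3 and 4, and the genes described here differ between these 2 sets, so values are given in replicate order throughout.

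*Cubn*, *Amn*, *Lrp2*, *Dab2*, *Nostrin* and *Lrpap1* were all called higher at 16, 24, 48 and 96 h than at 0 h, and *Fcgrt* was called lower at 96 h. A gene was called where limma gave a false discovery rate (FDR) below 0.1 over all 15227 genes tested and the fold change was at least 4-fold. At 48 h, 6 of the 7 genes were called higher, where 8.48% of all genes tested were. The median log2 fold change over the 7 genes at 48 h was 8.80, against -0.02 over all genes tested. *Cubn* ranked 1, *Nostrin* 2 and *Dab2* 3 of 15227 genes by fold change at 48 h, *Amn* ranked 17 and *Lrp2* 19, while *Lrpap1* ranked 302 and *Fcgrt* 5617. Those ranks were in view when the genes were chosen. Fold changes here are on the log2(normalized count + 1) scale, which understates the change of genes with few reads at 0 h.

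**Figure D1:**
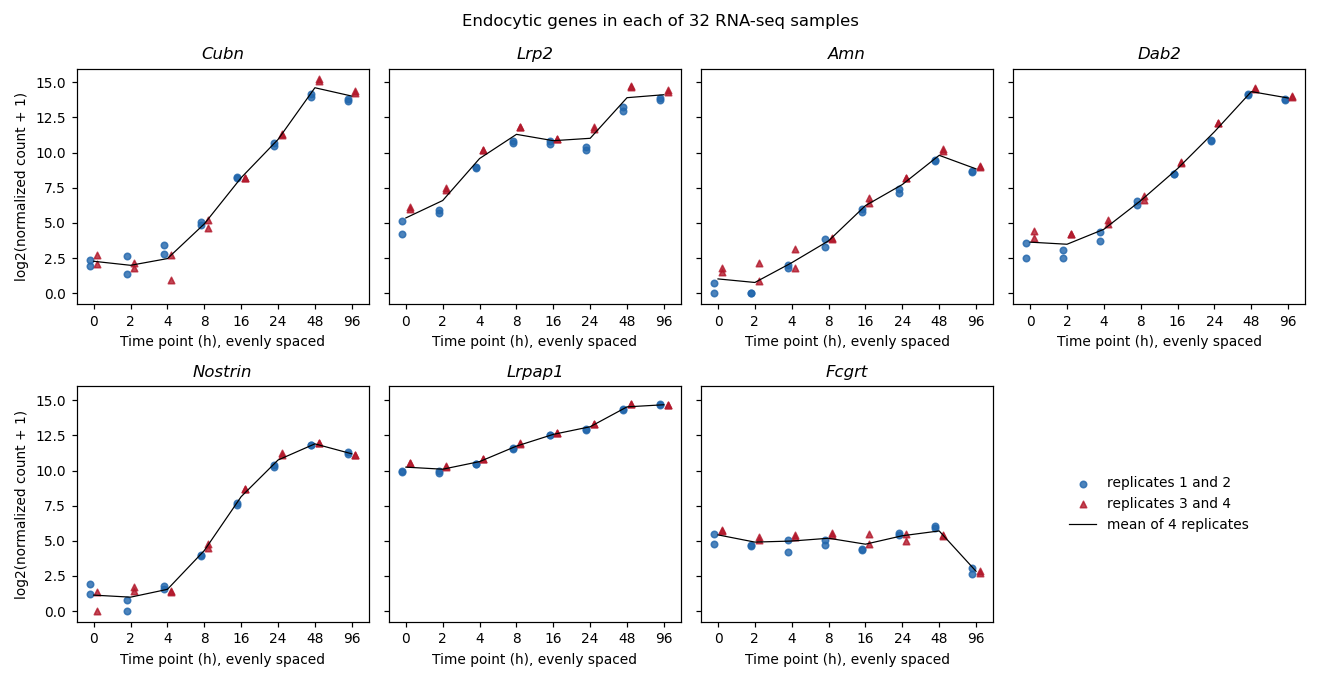
Levels of the 7 genes, as log2(normalized count + 1) on the vertical axis, at the 8 time points (h, evenly spaced) in all 32 samples. Circles are replicates 1 and 2, triangles are replicates 3 and 4, and the line joins the means of 4 replicates. The panels of the 6 risers climb to 48 h, *Lrp2* with a plateau from 8 to 24 h, and *Fcgrt* stays level until it drops at 96 h.

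The starts of these genes are shown as the 250 bases upstream of the RefSeq start (GRCm38.p6, 5′ to 3′ on the strand of the gene), to set side by side the promoters of genes that moved together. Matches on either strand to GATA words (AGATAA or TGATAA, and AGATAG or TGATAG), an HNF1 half-site (GTTAAT), FOXA words (TGTTTAC or TGTTTGC) and SOX words (ACAATG or ACAATA) are in capitals, and no marked matches overlapped. Each set of words occurs by itself in many windows: the GATA words in 26.5%, the HNF1 half-site in 6.43%, the FOXA words in 7.29% and the SOX words in 17.4% of the 32851 windows of this length. *Cubn* (chr2:13491877-13492126, minus strand), *Amn* (chr12:111270846-111271095, plus strand) and *Lrp2* (chr2:69586030-69586279, minus strand) are shown first as the receptors, then the upstream and the downstream start of *Dab2* (chr15:6299539-6299788 and chr15:6386498-6386747, plus strand), which carry the matches found among the risers.

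Cubn: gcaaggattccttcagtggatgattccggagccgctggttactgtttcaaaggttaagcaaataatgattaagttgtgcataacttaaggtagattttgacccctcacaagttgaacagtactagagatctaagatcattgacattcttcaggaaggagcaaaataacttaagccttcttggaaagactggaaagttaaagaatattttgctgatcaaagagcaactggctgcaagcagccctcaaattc
Amn: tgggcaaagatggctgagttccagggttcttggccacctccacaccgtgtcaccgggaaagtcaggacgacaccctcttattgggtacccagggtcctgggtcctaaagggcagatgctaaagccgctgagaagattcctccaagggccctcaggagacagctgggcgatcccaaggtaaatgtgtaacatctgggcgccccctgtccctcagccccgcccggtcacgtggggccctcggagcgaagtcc
Lrp2: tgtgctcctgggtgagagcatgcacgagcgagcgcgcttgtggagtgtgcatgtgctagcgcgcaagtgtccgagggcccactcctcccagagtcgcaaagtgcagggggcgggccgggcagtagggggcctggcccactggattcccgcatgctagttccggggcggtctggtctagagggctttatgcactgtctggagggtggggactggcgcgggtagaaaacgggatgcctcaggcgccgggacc
Dab2 upstream start: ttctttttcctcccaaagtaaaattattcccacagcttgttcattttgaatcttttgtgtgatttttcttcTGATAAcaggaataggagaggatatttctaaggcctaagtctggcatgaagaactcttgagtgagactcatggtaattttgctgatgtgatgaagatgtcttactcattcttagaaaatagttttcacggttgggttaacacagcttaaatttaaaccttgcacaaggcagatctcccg
Dab2 downstream start: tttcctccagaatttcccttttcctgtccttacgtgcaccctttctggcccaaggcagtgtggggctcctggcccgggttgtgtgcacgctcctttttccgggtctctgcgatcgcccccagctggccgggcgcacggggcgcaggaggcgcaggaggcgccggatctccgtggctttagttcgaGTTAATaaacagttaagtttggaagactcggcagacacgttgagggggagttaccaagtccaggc

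The *Cubn* window held 39.6% G and C and 2 CpG, and the *Amn* window 61.2% and 11 CpG, although the 2 proteins work as 1 receptor. *Lrp2* had the most G and C of the windows examined, 66.4%, with 18 CpG. None of the 3 receptor windows held a match to these words, and neither did those of *Nostrin* and *Lrpap1*. The upstream *Dab2* window held 1 GATA word, 179 to 174 bases before the start, and the downstream window held 1 HNF1 half-site, 65 to 60 bases before it. The *Fcgrt* window held 1 FOXA word, 116 to 110 bases before its start. The median window of all genes held 52.4% G and C. A match of this kind is a description of the letters, and the absence of one says only that these letters are not in the window.

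Cubilin rose from a few reads at 0 h to the largest fold change of any gene tested at 48 h. *Cubn* (ENSMUSG00000026726) lies on the minus strand at chr2:13276338-13491813 (GRCm38), and its exons cover 14935 bases. At 0 h its normalized counts in replicates 1 to 4 were 2.76, 4.08, 3.22 and 5.67, from 15 reads in all. At 8 h they were 27.5, 32.1, 35.0 and 24.3, and at 16 h 295, 306, 289.5 and 294. No sample at 8 h overlapped those at 0 h, and the 16 h samples lay within 289.5 to 306 in both replicate sets. At 24 h *Cubn* was at 1414, 1634, 2577 and 2474, and at 48 h at 15660, 18603, 35811 and 38175. Replicates 3 and 4 lay above replicates 1 and 2 at both times, by 2.16-fold at 48 h. The 96 h values were 14187, 13268, 21252 and 19268, which overlap the 48 h samples across all replicates. Within each replicate set both 96 h samples were below both at 48 h, the mean going from 17132 to 13728 in replicates 1 and 2 and from 36993 to 20260 in replicates 3 and 4.

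Against 0 h, *Cubn* had a log2 fold change of 2.66 (8 h), 5.95 (16 h), 8.67 (24 h), 12.35 (48 h) and 11.76 (96 h), with a standard error (SE) of 0.35 for each. As a ratio of means, the 48 h level was 6883 times that at 0 h, with a 95% counting interval of 4173 to 12298 that covers counting error only. *Cubn* was called at every step from 4 to 48 h, and the step from 24 to 48 h was its biggest at 3.68 on the log2 scale. The change from 0 to 48 h was 11.93 in replicates 1 and 2 alone and 12.77 in replicates 3 and 4 alone. A processed transcript on the opposite strand, *Gm13270*, touches 2 *Cubn* exons. It averaged 1.26 normalized counts over all samples and reached at most 5.28, and the strand setting used for counting is not stated.

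Amnionless, the partner that carries cubilin to the surface, started rising with it and ended far below it. *Amn* (ENSMUSG00000021278, chr12:111271095-111276426, plus strand, 1843 bases of exon) had 0, 0.679, 2.42 and 1.89 normalized counts at 0 h, at most 3 reads in any sample. The 8 h values were 8.64, 13.4, 14.0 and 13.7, and those at 24 h were 137, 166, 296 and 294. At 48 h *Amn* reached 666, 708, 1253 and 1088, and at 96 h it was at 392, 419.7, 497 and 539.9. All 96 h samples lay below all 48 h samples, and replicates 3 and 4 were the higher pair at each of these times after 8 h. The log2 fold change against 0 h was 2.71 at 8 h, 8.80 at 48 h and 7.83 at 96 h (SE 0.40). The ratio of the 48 h mean to the 0 h mean was 745, with a counting interval of 319 to 2295 that reflects the 5 reads at 0 h.

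Per kb of exon, *Amn* exceeded *Cubn* early and *Cubn* exceeded *Amn* late. The ratio of *Cubn* to *Amn* normalized counts per kb was 0.304 ± 0.071 (SD, n = 4) at 8 h and 0.512 ± 0.156 at 16 h. By 24 h it was 1.15 ± 0.11. It was 3.50 ± 0.61 at 48 h, from 2.90, 3.24, 3.53 and 4.33 in replicates 1 to 4. At 96 h the ratio was 4.51 ± 0.57, from 4.47, 3.90, 5.28 and 4.40. The samples up to 24 h lay all below those at 48 h, whereas the 48 h and 96 h samples overlapped across all replicates. Within each replicate set both 96 h ratios were above both at 48 h, with means of 3.07 and 4.19 in replicates 1 and 2 and of 3.93 and 4.84 in replicates 3 and 4. Exon length was the union of all annotated exons, so that a sample using a shorter transcript would read too low on this scale.

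Megalin was the first of these genes to be called. *Lrp2* (ENSMUSG00000027070, chr2:69424340-69586065, minus strand, 16701 bases of exon) was at 17.9, 33.3, 61.3 and 68.0 normalized counts at 0 h. At 2 h it was at 58.2, 51.3, 175 and 158, which overlaps the 0 h samples across all replicates. Within each replicate set both 2 h samples were above both at 0 h, the mean going from 25.6 to 54.8 in replicates 1 and 2 and from 64.6 to 167 in replicates 3 and 4. The log2 fold change over all samples was 1.24 (SE 0.46), under the 4-fold threshold. At 4 h the values were 512, 479.7, 1187 and 1168, and every sample lay above all at 0 h and at 2 h. *Lrp2* was the 1 gene of the 7 called against 0 h at 4 h, with a log2 fold change of 4.23 (SE 0.46), where 2.69% of all genes tested were called higher.

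From 8 to 24 h the level of *Lrp2* was not called at either step. At 8 h *Lrp2* reached 1854, 1670.5, 3581 and 3638, at 16 h it was at 1576, 1821, 1986 and 2029, and at 24 h at 1152, 1351, 3611 and 3294. The 3 time points overlap. Replicates 3 and 4 were lower at 16 h than at 8 h and higher again at 24 h, and replicates 1 and 2 were lowest at 24 h among these times. The log2 fold change was -0.45 from 8 to 16 h and 0.17 from 16 to 24 h (SE 0.46), and neither passed the threshold.

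At 48 h *Lrp2* was at 8147, 9608, 25762 and 27788, all above the 24 h samples, a log2 fold change of 2.89 over 24 h (SE 0.46). At 96 h it was at 15489, 14004, 22474 and 20663. These values fall between the lowest and the highest samples at 48 h, where the 2 sets of replicates were 3.02-fold apart, the widest gap of *Lrp2* between them in any group after 2 h. Relative to 0 h, *Lrp2* had log2 fold changes of 8.56 (48 h) and 8.77 (96 h). Within replicates 1 and 2 it went from 8.44 at 48 h to 9.17 at 96 h, and within replicates 3 and 4 from 8.67 to 8.36, so that the direction between 48 and 96 h differed between the sets.

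*Nostrin* and *Lrp2* are neighbours on chromosome 2. The last base of *Nostrin*, at position 69189330, lies 235 kb from the nearer end of *Lrp2*, and the genes are on opposite strands with 6 annotated genes between, of which 4 are protein coding (*Spc25*, *G6pc2*, *Abcb11* and *Dhrs9*). *Spc25*, a kinetochore gene, averaged 667 ± 59 normalized counts at 0 h and 997 ± 49 at 48 h and was not called. *G6pc2*, *Abcb11* and *Dhrs9* had at most 2 reads in any sample. The 2 neighbours had different courses, *Lrp2* being called at 4 h and *Nostrin* at 8 h.

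Cubilin and megalin, which bind one another, reached like levels by the end. Per kb of exon, *Cubn* was at 0.181 ± 0.023 of *Lrp2* at 16 h, 1.09 ± 0.31 at 24 h and 1.85 ± 0.35 at 48 h. At 96 h the ratio was 1.02, 1.06, 1.06 and 1.04 in replicates 1 to 4, a mean of 1.05 ± 0.016. The replicate sets were apart in this ratio at 24 h (1.37 and 1.35 against 0.798 and 0.840) and at 48 h (2.15 and 2.17 against 1.55 and 1.54), but not at 96 h. Each of the 2 genes still differed 1.46-fold or more between the sets at 96 h.

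**Figure D2:**
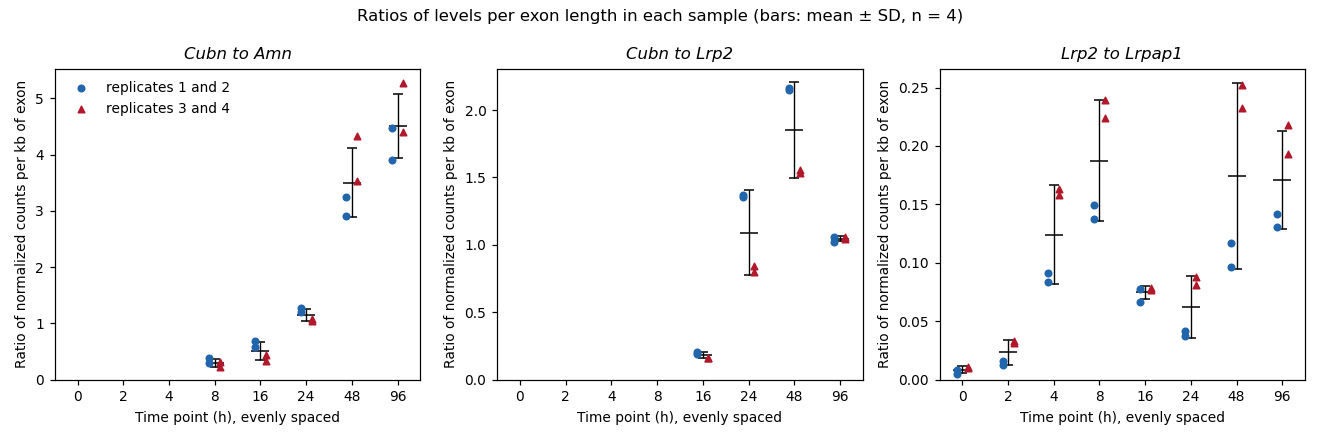
Ratios of normalized counts per kb of exon (vertical axes) in each sample for *Cubn* to *Amn*, *Cubn* to *Lrp2* and *Lrp2* to *Lrpap1*, by time point (h, evenly spaced). Circles are replicates 1 and 2, triangles replicates 3 and 4, and bars are mean ± SD (n = 4). *Cubn* to *Amn* climbs from 0.304 at 8 h to 4.51 at 96 h, and *Cubn* to *Lrp2* is tight at 1.05 at 96 h. *Lrp2* to *Lrpap1* has its highest mean at 8 h, and its samples at 48 and 96 h overlap those at 8 h. *Cubn* to *Amn* is drawn from 8 h, before which *Amn* had too few reads. *Cubn* to *Lrp2* is drawn from 16 h, and its ratio at 8 h, which is not drawn, was 0.014 ± 0.006.

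The receptor-associated protein, the chaperone of megalin in the endoplasmic reticulum, was abundant before induction and had a smaller fold change. *Lrpap1* (ENSMUSG00000029103, chr5:35091501-35105766, minus strand, 4116 bases of exon) was at 976, 957, 1514 and 1507 normalized counts at 0 h. The values were 3052, 3003, 3941 and 3748 at 8 h and 5806, 5786, 6407 and 6394 at 16 h. At 48 h they were 20854, 20277, 27287 and 27156, and at 96 h 26949, 26360.5, 25362 and 26356. At each step from 2 h to 48 h all samples lay above those of the time point before, and at 96 h all 4 samples lay between 25362 and 26949. From 48 to 96 h the mean rose from 20566 to 26655 in replicates 1 and 2 and fell from 27222 to 25859 in replicates 3 and 4.

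*Lrpap1* had log2 fold changes over 0 h of 1.5 (8 h), 2.33 (16 h), 4.29 (48 h) and 4.44 (96 h), with SE 0.15, and it was called from 16 h. The 48 h mean was 19.3 times the 0 h mean, with a counting interval of 18.8 to 19.8. *Lrpap1* was the highest of the 7 genes per kb of exon at all 8 time points, with 301 ± 76 at 0 h and 5805 ± 935 at 48 h. The ratio of *Lrp2* to *Lrpap1* per kb went from 0.0085 ± 0.0029 at 0 h to 0.187 ± 0.052 at 8 h, was 0.062 ± 0.026 at 24 h, and was 0.174 ± 0.079 at 48 h and 0.171 ± 0.042 at 96 h. The mean ratio was lower at 48 h than at 8 h in replicates 1 and 2 (0.107 against 0.143) and higher in replicates 3 and 4 (0.242 against 0.232). Receptor transcript was below chaperone transcript in every sample on this scale, and the highest ratio was 0.252, at 48 h.

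The adaptor *Dab2*, which links the tails of megalin and other LDL receptor family members to clathrin, followed *Cubn* most closely. *Dab2* (ENSMUSG00000022150, chr15:6299788-6440712, plus strand, 7342 bases of exon) was at 11.0, 4.76, 14.5 and 20.8 normalized counts at 0 h and at 75.4, 93.7, 117 and 98.1 at 8 h. It reached 1829, 1887, 4522 and 4336 at 24 h and 17629, 18178, 23804 and 24409 at 48 h. The 96 h samples, at 13984, 14173, 16624 and 15914, were all below those at 48 h. Its log2 fold changes over 0 h were 2.95 (8 h), 7.86 (24 h), 10.71 (48 h) and 10.26 (96 h), with SE 0.37, and *Dab2* was called at every step from 4 to 48 h. Replicates 3 and 4 were above replicates 1 and 2 at every time point, by 2.38-fold at 24 h and 1.35-fold at 48 h. Over the 8 time point means of log2(normalized count + 1), the Pearson correlation of *Dab2* with *Cubn* was 0.998. It was little lower with *Lrpap1* (0.994), *Amn* (0.993) and *Nostrin* (0.984), and was 0.897 with *Lrp2*. Those 8 points share libraries and a common upward course.

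*Nostrin*, whose protein binds the endothelial nitric oxide synthase, had its largest step between 8 and 16 h, 3.83 on the log2 scale. *Nostrin* (ENSMUSG00000034738, chr2:69135800-69189330, plus strand, 1888 bases of exon) was at 2.76, 1.36, 1.61 and 0 normalized counts at 0 h, from 6 reads. At 8 h it was at 14.9, 14.3, 21.8 and 26.6, at 16 h at 188, 201, 409 and 405, and at 24 h at 1348, 1219.7, 2205 and 2405. The sets were 2.09-fold apart at 16 h. At 48 h *Nostrin* was at 3586, 3646, 4017 and 4030.1, and at 96 h at 2359.9, 2506, 2253 and 2230.4, all below 48 h. Log2 fold changes over 0 h were 3.17 (8 h), 9.61 (24 h), 10.76 (48 h) and 10.06 (96 h), with SE 0.33. The 48 h mean was 2666 times the 0 h mean with a counting interval of 1225 to 7264. *Nostrin* stood at 47.0% of its highest mean by 24 h, against 24.1% for *Amn*, 15.0% for *Dab2* and 7.48% for *Cubn*. Of 4 endothelial and blood markers 2 could be tested, and at 48 h *Cdh5* was called higher (95.1 ± 46.9 normalized counts) and *Pecam1* lower. The 4 summed to between 545 and 918 normalized counts at 0 h and between 223 and 314 at 48 h. Most of that sum was *Pecam1*, at 730 ± 177 at 0 h and 172 ± 21 at 48 h. *Cdh5* went the other way, from 0.170 ± 0.340 at 0 h and 4.60 ± 5.29 at 8 h to 77.4 ± 38.5 at 16 h and 379 ± 64 at 96 h. *Ptprc* was at 0 in every 48 h sample. The part of these markers in the *Nostrin* level was not tested.

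The neonatal Fc receptor went the other way. *Fcgrt* (ENSMUSG00000003420, chr7:45092990-45103851, minus strand, 2102 bases of exon) was at 42.8, 26.5, 50.8 and 52.9 normalized counts at 0 h. Its time point means stayed between 27.5 and 52.2 through 48 h, and every one of these groups overlapped 0 h. Within each replicate set both 2 h samples were below both at 0 h, with means of 24.5 against 34.6 in replicates 1 and 2 and 34.3 against 51.8 in replicates 3 and 4, a change that was not called. From 16 to 48 h the mean of replicates 1 and 2 went from 19.7 to 63.1, without overlap at either step. That of replicates 3 and 4 went from 35.3 to 41.2, with overlap at both steps. The log2 fold change at 48 h against 0 h was 0.88 in replicates 1 and 2 alone and -0.32 in replicates 3 and 4 alone. At 48 h *Fcgrt* was at 66.0, 60.3, 42.2 and 40.2, where replicates 1 and 2 were the higher pair, the reverse of the other genes. At 96 h it was at 5.31, 7.36, 6.28 and 5.67, from 23 reads in all, and every sample lay below all samples of each earlier time point. The log2 fold change was -2.59 against 0 h and -2.87 against 48 h (SE 0.27), and both were called. At 96 h 1 of the 7 genes was called lower, where 10.3% of all genes tested were called lower than at 0 h and 2.4% lower than at 48 h. *B2m*, the light chain with which the FcRn protein assembles, rose from 161 ± 17 normalized counts at 0 h to 767 ± 104 at 48 h and 1102 ± 52 at 96 h, with a log2 fold change of 2.77 at 96 h (SE 0.16, adjusted p = 7.9e-16 by limma).

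**Figure D3:**
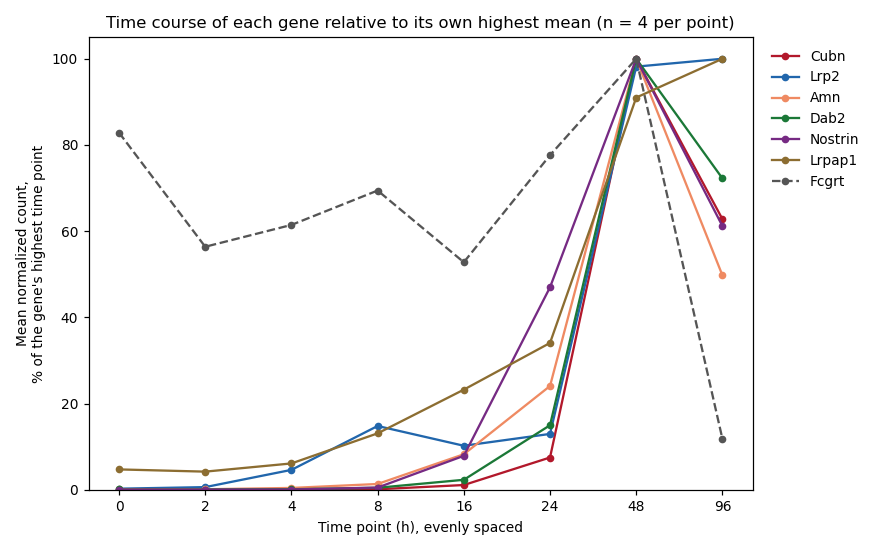
Mean normalized count of each gene as a percent of its own highest time point mean (vertical axis), by time point (h, evenly spaced), with n = 4 per point. *Nostrin* is at 47.0% by 24 h and *Cubn* at 7.48%, and at 96 h *Lrp2* and *Lrpap1* are at their maximum while *Amn* is at 49.7% and *Fcgrt*, drawn dashed, at 11.8%.

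The order of the first rise differed from the order of the largest levels. At 2 h no gene of the 7 was called, where 2.35% of all genes tested were called in either direction. At 8 h 5 genes were called higher (*Lrp2*, *Nostrin*, *Dab2*, *Amn* and *Cubn*), where 3.4% of all genes tested were, and *Lrpap1* joined them at 16 h, where 4.03% were. At 24 h 6 were called higher (4.85% of all genes tested) and at 96 h again 6 (9.28%). The 8 h count rests on low levels, since it was 2 with a pseudocount of 5 and 3 on the deposited log2 values. All samples lay above all 0 h samples for 1 gene at 4 h, where 17.7% of all genes tested did so, and for 6 genes at 8 h, where 20.0% did so. Each of the 6 risers first reached 50% of its highest mean at 48 h on the linear scale, except that *Nostrin* did so at 24 h without replicate 2 and in replicates 3 and 4 alone. On the log2 scale 50% of the total rise was first reached at 8 h by *Lrp2*, at 16 h by *Amn*, *Nostrin* and *Lrpap1*, and at 24 h by *Cubn* and *Dab2*. With 2 h as the baseline, when all cells were already in serum medium with Dox, 5 genes were called higher at 8 h (2.07% of all genes tested) and 6 at 48 h (8.5%).

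Between neighbouring time points the genes called among the 7 differed from step to step, and the steps were of unequal length. *Lrp2* alone was called higher from 2 to 4 h (0.558% of all genes tested), although 2 genes were without replicate 3. *Cubn*, *Dab2* and *Nostrin* were called from 4 to 8 h (0.565%) and again from 16 to 24 h (0.525%), and these 3 with *Amn* from 8 to 16 h (0.499%). The step from 4 to 8 h called none of the 7 with a pseudocount of 5. The step from 24 to 48 h called *Cubn*, *Lrp2*, *Dab2* and *Amn* (2.51%). From 48 to 96 h none was called higher, where 1.3% of all genes tested were, and *Amn*, *Dab2*, *Nostrin* and *Fcgrt* had all samples below those at 48 h, where 22.1% of all genes tested did so. The log2 fold changes for that last step were -0.97 for *Amn*, -0.71 for *Nostrin*, -0.59 for *Cubn* and -0.46 for *Dab2*, against 0.21 for *Lrp2* and 0.15 for *Lrpap1*. For *Lrp2* and *Lrpap1* the direction of that step differed between the replicate sets. *Hnf4a*, a visceral endoderm marker, averaged 800 ± 47 normalized counts at 48 h and 335 ± 24 at 96 h, whereas the other visceral markers tested, *Rhox5* and *Ihh*, averaged 3591 ± 99 and 254 ± 50 at 48 h and 4587 ± 191 and 327 ± 49 at 96 h. The summed level of the 5 visceral markers was 4405 to 4809 at 48 h and 5061 to 5442 at 96 h. The parietal markers *Thbd* and *Plat* averaged 28.7 ± 15.2 and 460 ± 201 at 48 h and 632 ± 71 and 2558 ± 204 at 96 h. Their part in the lower *Amn*, *Dab2* and *Nostrin* levels was not tested.

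By level per kb of exon the order at 48 h was *Lrpap1* (5805 ± 935), *Dab2* (2861 ± 490), *Nostrin* (2023 ± 125), *Cubn* (1812 ± 775), *Lrp2* (1067 ± 622), *Amn* (504 ± 156) and *Fcgrt* (24.8 ± 6.1). *Nostrin* and *Cubn*, *Cubn* and *Lrp2*, and *Lrp2* and *Amn* overlapped as neighbours in that order. At 0 h *Lrpap1* (301 ± 76) and *Fcgrt* (20.6 ± 5.7) led, and *Lrp2* (2.7 ± 1.41), *Dab2* (1.74 ± 0.91), *Nostrin*, *Amn* and *Cubn* each overlapped the next. At 96 h the same order held as at 48 h, with *Nostrin* (1238 ± 67), *Cubn* (1138 ± 260) and *Lrp2* (1087 ± 243) overlapping.

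The replicate sets moved most of these genes in 1 direction. By the mean of log2(normalized count + 1), replicates 3 and 4 exceeded replicates 1 and 2 in 6 of the 7 genes at 0, 8, 16, 24 and 48 h, in 7 at 2 h, in 5 at 4 h and in 4 at 96 h. At 48 h the log2 difference was 1.6 for *Lrp2*, 1.12 for *Cubn*, 0.76 for *Amn*, 0.43 for *Dab2*, 0.40 for *Lrpap1* and 0.15 for *Nostrin*, and -0.60 for *Fcgrt*. Over all genes tested the median size of that difference was 0.24 and 5.7% of genes differed by 2-fold or more between the sets at 48 h. The sets were about as far apart in *Lrp2* at 0 h (1.36) as at 48 h, before any Dox was given. The calls of the 7 genes at 48 and 96 h were the same in each set alone, and what the sets stand for is not given in the labels.

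**Figure D4:**
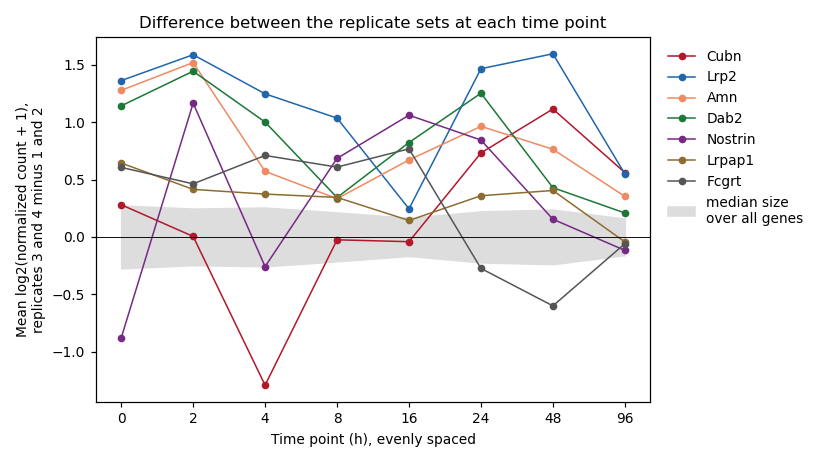
Difference between the mean of replicates 3 and 4 and the mean of replicates 1 and 2 in log2(normalized count + 1) (vertical axis) for each gene by time point (h, evenly spaced). The grey band is the median size of that difference over all 15227 genes tested. *Lrp2* is at 1.6 at 48 h and *Fcgrt* at -0.60, while the band is 0.24 wide on either side.

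Most genes of the surrounding endocytic machinery were not called at 48 h, which was also so for most of all genes tested. At 48 h, against shares of 8.48% higher and 7.09% lower over all genes tested, 0 of 12 tested members of the LDL receptor family other than megalin were called. Their median log2 fold change was -0.13, and among them *Vldlr* had 1.07 and *Lrp1* -0.46. At 96 h 2 of the 12 were called lower than at 0 h and 0 higher, against shares of 10.3% and 9.28% over all genes tested. Their median log2 fold change was -0.04, and *Lrp10* (1.93), *Lrp3* (1.69) and *Lrp8* (1.44) were higher without being called. The 2 called lower were *Lrp1* and *Sorl1*, with log2 fold changes of -2.31 (SE 0.22, adjusted p = 8.8e-11 by limma) and -3.77 (SE 0.24, adjusted p = 5.4e-15 by limma). These p-values also take the replicates of a group as independent and may be too small.

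Of 22 clathrin coat and adaptor genes 1 was called higher and 1 lower at 48 h, with a median log2 fold change of 0.65. *Myo6*, the minus-end motor that carries endocytic vesicles away from the surface and binds DAB2, rose from 102 ± 21 to 2836 ± 141 normalized counts, a log2 fold change of 4.81 (SE 0.20). *Dab1*, the neuronal relative of *Dab2*, fell from 63.1 ± 44.4 to 6.95 ± 2.77 (log2 fold change -2.75, SE 0.55). It had a log2 fold change of -1.78 in replicates 3 and 4 alone, under the threshold. The clathrin heavy chain *Cltc* (1.24) and the AP-2 subunits *Ap2a1*, *Ap2b1* and *Ap2m1* (0.06, 0.78 and 0.81) did not reach the 4-fold threshold.

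Among 19 endosome sorting and recycling genes 3 were called higher and 1 lower at 48 h. *Clcn5*, the endosomal chloride-proton exchanger whose loss impairs proximal tubule uptake, rose from 76.4 ± 20.8 to 2281 ± 575 normalized counts, a log2 fold change of 4.89 (SE 0.22). *Appl2*, an early endosome effector, and *Snx27*, a retromer cargo adaptor, had log2 fold changes of 2.24 (SE 0.16) and 2.06 (SE 0.07), and *Rab38* had -2.75 (SE 0.23). *Appl2* fell under the threshold in replicates 3 and 4 alone (1.81), and *Snx27* under upper-quartile scaling (1.95). The median log2 fold change over the list was 0.69. Among the genes not called at 48 h, *Rab5a* had 0.39 and *Vps35* 0.69, whereas *Eea1* (1.73) and *Rab11a* (1.96) came nearer the threshold. *Eea1* was called higher at 96 h (2.22), where 9.28% of all genes tested were.

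**Figure D5:**
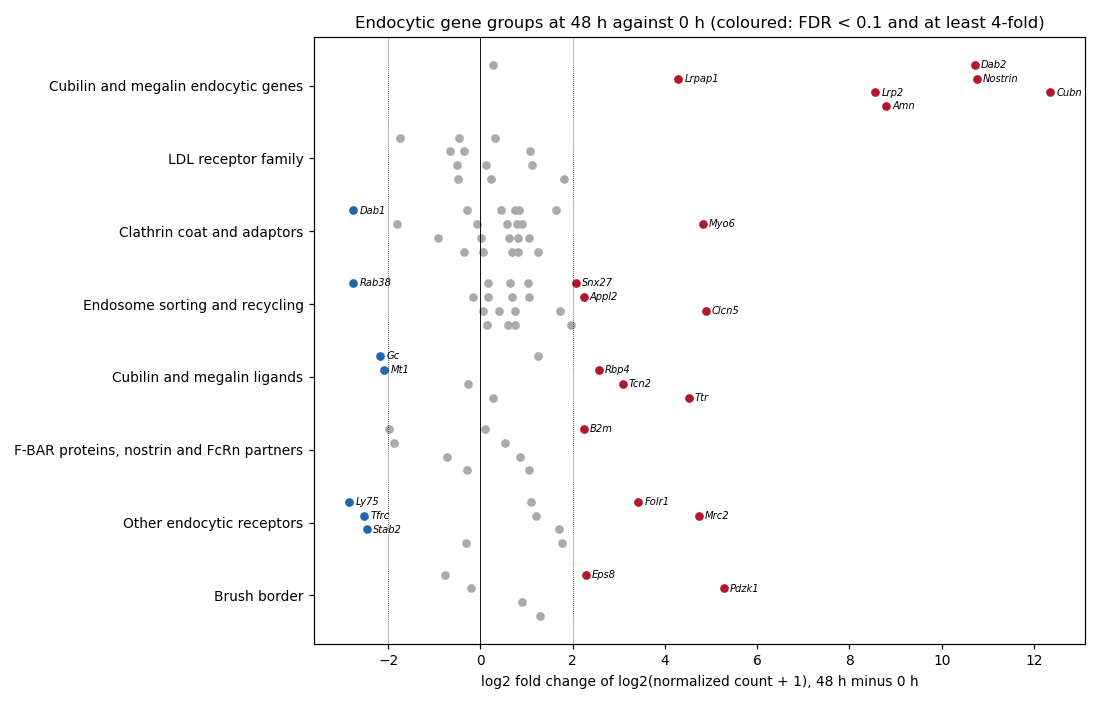
Fold change at 48 h against 0 h (horizontal axis, on the log2(normalized count + 1) scale) of the 7 endocytic genes and of 7 lists of related genes; each point is a gene that was tested, and coloured, named points passed FDR below 0.1 and 4-fold. The 6 risers lie between 4.29 and 12.35, and no list gene lies above 5.28 (*Pdzk1*).

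Of 14 ligands of cubilin and megalin 8 were measured well enough to test. *Tcn2*, which carries cobalamin, rose from 113 ± 19 to 959 ± 114 normalized counts (log2 fold change 3.08, SE 0.20), and *Mt1*, a metallothionein, fell from 2451 ± 271 to 593 ± 178 (-2.09, SE 0.23). The other ligand genes called were at low levels: *Ttr* had no reads at 0 h and 22.5 ± 5.8 normalized counts at 48 h, *Rbp4* was at 0.711 ± 0.963 and 8.27 ± 1.96, and *Gc*, the vitamin D carrier, fell from 39.8 ± 17.9 to 8.66 ± 5.69. *Alb* had no reads at 48 h. Without replicate 3 or 4 *Mt1* fell under the threshold (-1.95 and -1.91), and without replicate 1 *Gc* did (-1.91). In replicates 1 and 2 alone *Mt1* was at -1.62. On the deposited log2 values *Rbp4* (1.69) and *Gc* (-1.73) were also under it, as they were with a pseudocount of 5.

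Of 9 tested F-BAR and FcRn partner genes *B2m* was the 1 called at 48 h. *Nos3* and *Cav1*, the endothelial partners of *Nostrin*, averaged 2.82 and 0 normalized counts at 48 h. Other endocytic receptors went both ways, 2 higher and 3 lower of 10 tested. *Folr1*, the folate receptor, rose from 182 ± 65 to 1931 ± 607 normalized counts (log2 fold change 3.42, SE 0.23), and *Mrc2* rose from 3.74 ± 1.49 to 121 ± 19 (4.73, SE 0.40). *Tfrc*, the transferrin receptor, fell from 3806 ± 189 to 717 ± 324 (-2.52, SE 0.21), although to -1.99 in replicates 1 and 2 alone. *Ly75* fell from 1826 ± 441 to 249 ± 21 (-2.84, SE 0.20), and *Stab2* from 10.4 ± 3.4 to 1.15 ± 0.87 (-2.46, SE 0.42), a change that was under the threshold with a pseudocount of 5 (-1.30) and in replicates 1 and 2 alone (-1.97).

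Of 6 tested brush border genes *Pdzk1*, a scaffold of apical transporters, and *Eps8*, an actin-capping protein of microvilli, were called higher. *Pdzk1* rose from 3.99 ± 3.31 to 151 ± 38 normalized counts (log2 fold change 5.28, SE 0.55) and *Eps8* from 374 ± 27 to 1829 ± 212 (2.28, SE 0.11). *Vil1*, the villin of intestinal and visceral endoderm microvilli, averaged 3.10 normalized counts at 48 h and was not tested.

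The genes with time courses most like each member were sought among 9958 genes, leaving out the 7 themselves, by the Pearson correlation over the 8 time point means. *Pcbd1* and *Parpbp* were among the 3 such genes most like both *Cubn* (0.998 and 0.997) and *Dab2* (0.997 and 0.996). *Rhpn1* (0.999) led for *Amn*, *Tmem144* (0.999) for *Nostrin*, *Pla2g12b* (0.997) for *Lrpap1* and *Basp1* (0.992) for *Lrp2*. For *Fcgrt* the highest correlation was 0.971, with *Nadk2*. The levels of these genes differ widely, *Pcbd1* being at 737 ± 45 normalized counts at 48 h and *Rhpn1* at 1483 ± 286. The correlation uses 8 points that share their libraries, and many genes that rise to 48 h score highly.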

How the data were processed

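Single-end reads were trimmed (cutadapt 2.7), mapped to GRCm38.p6 (HISAT2 2.1.0) and assigned to genes (featureCounts, Subread 1.6.4) by the authors, as their methods and the submitters' processing notes give it. The strand setting of the counting is not given in the sources used here. The authors describe estimating transgene expression by subtracting length- and depth-normalized 3′UTR expression of *Gata6* from that of its coding sequence, and whether the deposited transgene row was made in this way is not stated. The deposited table holds log2 values after the variance stabilizing transformation that the authors applied with DESeq2, 1 column per sample. Inverting the transformation gave counts divided by a size factor (normalized counts), and dividing by the value of 1 read gave whole reads. Genes reaching a normalized count of 10 in 4 or more samples (15227) were fitted on log2(normalized count + 1) with limma 3.58.1 (R 4.3.3), all 32 samples in 1 fit with an intensity trend and no block, and Benjamini-Hochberg adjustment over all genes tested per contrast. The fit took the 4 replicates of a group as independent. Its SEs and p-values may be too small where replicates of a set are technical. On simulated data for 48 h against 0 h, 199 of 200 changed genes (3 on the log2 scale) were called with the right sign. The changed genes started from mean normalized counts of at least 50, and the simulated replicates were drawn independently. That simulation therefore does not cover genes with few reads at 0 h or the replicate sets found here. Levels per kb used the union of exons in GENCODE M21, not the release used for counting. Promoters came from RefSeq's table for GRCm38.p6, which held all 7 genes, and the 50 bases after each start were left out. Reads recovered per sample (3190108 to 12301732) set the precision, and intervals on ratios are 95% Poisson intervals of the 0 h reads, for counting error only.

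The members and gene lists were chosen with earlier results of these data known. Genes named from a list are those called at 48 h where 5 or fewer were, beside a few given as values, which were chosen after their values were seen. Genes most like a member were the 3 with the highest correlation among genes other than the members with a mean normalized count of at least 100 at their highest time point. Alternatives were pseudocounts of 0.5 and 5, other filters, upper-quartile scaling, an FDR of 0.01, blocks, single replicate sets, each replicate left out, the deposited log2 values and limma-voom on whole reads. Replicate sets averaged, the set as a block, and timing within each set were added after seeing the data.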

Additional observations from a re-analysis of the deposited data

Results flagged for a closer look

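With a test for 1 outlying sample among 4 applied to each gene at each time point, 2 of 56 groups had a sample set apart. Chance alone sets apart about 1 in 20 groups of independent, normally spread values. The replicates here fell into sets, so that rate may not apply. *Amn* at 4 h was at 7.80 normalized counts in replicate 4 (9 reads), where the other samples lay between 2.41 and 2.97. *Amn* at 8 h was at 8.64 in replicate 1 (11 reads), where the others lay between 13.4 and 14.0. Both rest on few reads.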

How the results depend on the processing

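The counts of members called against 0 h at 2, 4, 16, 24 and 48 h and the direction of every member's fold change at 96 h were the same under each alternative run. The count called higher at 8 h was 2 with a pseudocount of 5 and 3 on the deposited log2 values, against 5. From 4 to 8 h the count was 0 under both of these and 1 with limma-voom on whole reads, against 3. A mean normalized count of at least 50 left *Fcgrt* out, so that 0 members were lower at 96 h than at 0 h or 48 h, and at 48 h it gave 0 clathrin coat and adaptor genes lower, 1 ligand gene higher and 1 lower, 1 other endocytic receptor higher and 1 brush border gene higher. In replicates 3 and 4 alone 1 LDL receptor family gene and 1 F-BAR or partner gene were lower and 0 clathrin coat and adaptor genes, and in replicates 1 and 2 alone 1 ligand gene and 1 other endocytic receptor were lower. The lower ligand genes numbered 1 with a pseudocount of 5 and on the deposited log2 values, and upper-quartile scaling gave 1 lower F-BAR or partner gene. On the deposited log2 values 50% of the highest level was first reached at 24 h by *Cubn* and *Dab2*, 8 h by *Lrp2*, 16 h by *Amn*, *Nostrin* and *Lrpap1* and 48 h by *Fcgrt*, since on that scale it is a share of the log2 rise. In replicates 3 and 4 alone *Nostrin* reached it at 24 h.

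Leaving out each replicate in turn gave 1 to 2 members called from 2 to 4 h, 2 to 3 from 4 to 8 h, 1 to 2 lower ligand genes, 0 to 1 lower F-BAR or partner genes, and 24 to 48 h as the time at which *Nostrin* reached 50%. For the other comparisons changed here the cause was not tested. With 2 h as the baseline the same counts were called from 8 h on.

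Samples of the same replicate number deviated together from their group means with a mean correlation of 0.196, as did those of the other number in the same set (0.196), against -0.196 for the other set, so the number pairs samples no better than the set does. A replicate block in the fit left the count of members called higher at 6 (48 h) and 5 (8 h), and changed no other count by over 1.5 times. For single list genes 15 values fell under the threshold with an alternative, and none changed sign.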
